A study of Mus musculus with 45 samples.

Results

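The aryl hydrocarbon receptor (AhR) complex and its feedback repressors were examined as 7 named genes of the 39179 genes in each count file. They were the receptor *Ahr*, its dimerization partners *Arnt* and *Arnt2*, the chaperones *Hsp90ab1* and *Ptges3*, and the feedback genes *Ahrr* and *Tiparp*, each matched to its Ensembl identifier. RNA-Seq read counts came from the livers of 45 C57BL/6 mice labelled female, 5 in each of 9 groups. The groups were gavaged with sesame oil vehicle or with TCDD (2,3,7,8-tetrachlorodibenzo-p-dioxin), a persistent contaminant and AhR ligand, at low (0.01, 0.03 and 0.1), middle (0.3 and 1) and high (3, 10 and 30 µg/kg) doses. Dosing began at the end of the fourth postnatal week and was repeated every 4 days for 28 days, after which livers were frozen. The sample labels also call the mice ovariectomized and the gavage daily, neither of which is in the study's methods, and an ovariectomy would be shared by all groups, controls included. Each mouse gave 1 library, so the spread within a group is the spread between mice.

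AhR is a ligand-activated transcription factor of the basic helix-loop-helix PAS family. Without ligand it is held in the cytosol in a complex with HSP90 and the co-chaperone p23, which *Ptges3* encodes. After ligand binding it enters the nucleus, pairs with ARNT and binds dioxin response elements, whose core is GCGTG. The AhR repressor, encoded by *Ahrr*, is itself a target gene and competes for ARNT and for response elements. The mono-ADP-ribosyltransferase encoded by *Tiparp* is also a target gene and represses AhR by modifying it. The receptor protein is degraded after activation, which mRNA levels do not show.

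Between 11767284 and 56509899 reads were counted on genes per mouse, with a median of 17225047. Levels are given in CPM, read counts scaled to a common library size with TMM factors. A gene was tested if any mouse had over 4 reads on it, which held for 17464 genes and for 6 of the 7 members. The tissue carried its hepatocyte markers, with the 9 matched marker genes summing to 123900 to 163200 CPM in vehicle mice. In 2 mice at 0.01 µg/kg, values stood apart from the other libraries. Replicate 5 had summed macrophage and Kupffer cell markers of 1370 CPM against 217.7 to 421.4 CPM in the other 4 mice of its group, and leukocyte markers of 63.82 against 11.22 to 17.49 CPM. Replicate 2 had 49 reads on *Xist*, the transcript of the inactive X chromosome, against 18603 to 81958 in the other 44 mice, which goes against its female label. Whether either library is mislabelled or mixed was not tested, and both are named below as labelled. The values at 0.01 µg/kg, and each call against vehicle or between doses that changed, are given with and without these mice.

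The members differed widely in level in vehicle livers. Per kilobase of exon, *Hsp90ab1* was at 238.1 ± 23.99 CPM per kb (SD, n = 5), *Ptges3* at 21.4 ± 4.1, *Ahr* at 11.9 ± 2.4, *Arnt* at 7.33 ± 0.83 and *Tiparp* at 3.14 ± 0.54. *Ahrr* was at 0.0147 ± 0.0105 and *Arnt2* at 0.00132 ± 0.00294 CPM per kb (SD, n = 5). Neighbouring genes in this order did not overlap between mice down to *Ahrr*, since the lowest *Ptges3* mouse (16.1) was above the highest *Ahr* mouse (15.8) and the lowest *Ahr* mouse (9.75) above the highest *Arnt* mouse (8.15). The order of *Ptges3* and *Ahr* rested on the exon lengths used, 2217 and 6163 bases. In CPM it was reversed, with *Ahr* at 60.1 to 97.4 and *Ptges3* at 35.7 to 57.5 in vehicle mice. The lowest *Ahrr* mouse (0.00653) was below the highest *Arnt2* mouse (0.00657), and that pair could not be ordered. At 30 µg/kg the order was *Hsp90ab1* (270.1 ± 24.5 CPM per kb), *Tiparp* (38.9 ± 5.7), *Ptges3* (16.3 ± 2.0), *Ahr* (11.1 ± 1.6), *Ahrr* (7.99 ± 1.71), *Arnt* (6.92 ± 1.09) and *Arnt2* (0.00298 ± 0.00666; SD, n = 5 each). *Tiparp* had thus moved above *Ptges3* without overlap (29.8 to 44.01 against 13.7 to 18.4 CPM per kb). *Ahrr* (5.97 to 9.87) then overlapped both *Ahr* (9.19 to 12.7) and *Arnt* (5.70 to 8.65).

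**Figure D1:**
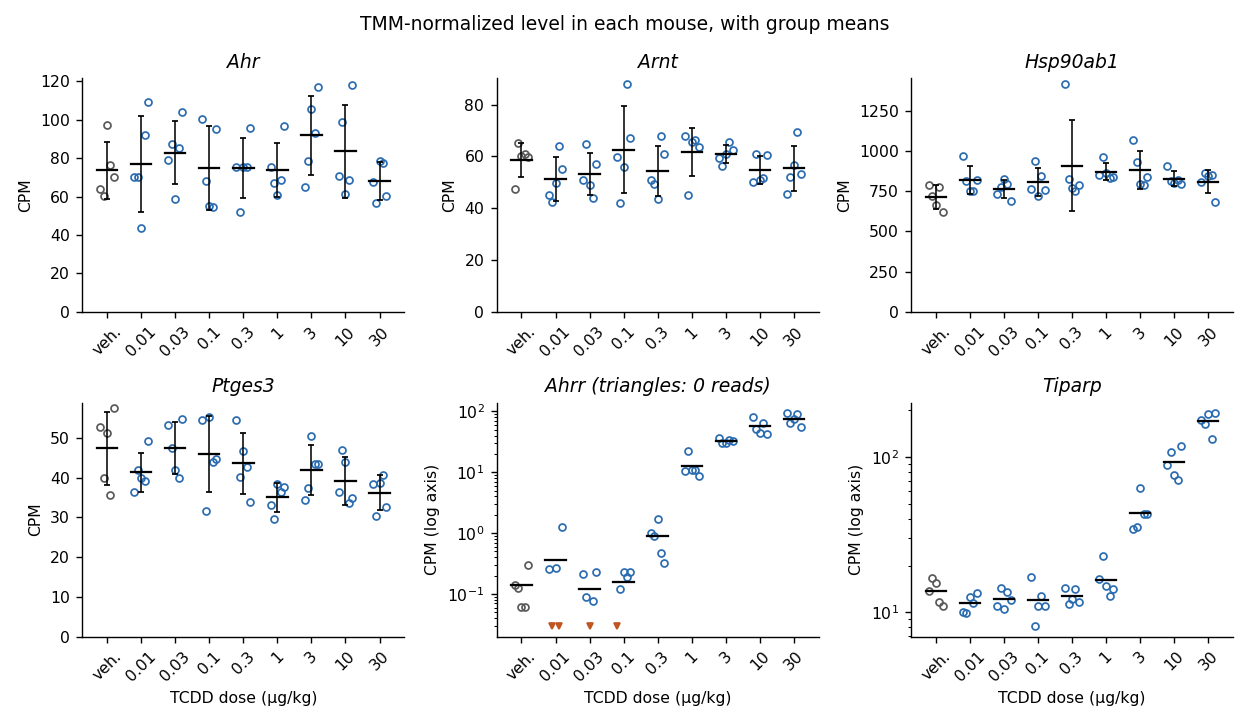
CPM of the 6 tested members in each of the 45 mice against TCDD dose, with vehicle in gray, group means as bars and, on the linear panels, SDs as error bars. *Ahr*, *Arnt*, *Hsp90ab1* and *Ptges3* have linear axes from 0, *Ahrr* and *Tiparp* log axes, and triangles mark the 4 mice with 0 *Ahrr* reads. *Ahrr* lies wholly above the vehicle group from 0.3 µg/kg, where it was not called, and *Tiparp* from 3 µg/kg, while the *Ahr* and *Arnt* groups overlap the vehicle group at each dose.

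Differences from vehicle were tested at each dose with edgeR's quasi-likelihood test in 1 fit over the 45 mice, and a gene was called at a Benjamini-Hochberg adjusted p under 0.05 over all 17464 genes. No member was called at 0.01, 0.03, 0.1 or 0.3 µg/kg, where 0%, 0.0573%, 0.0229% and 0.464% of all tested genes were. At an unadjusted p under 0.05 there were 1, 0, 0 and 2 members at these doses (*Ahrr* at the lowest, *Ahrr* and *Hsp90ab1* at the highest), and DESeq2's Wald test called 0, 0, 0 and 1. *Ahrr* was called from 1 µg/kg (1.76% of all genes), and *Tiparp* with it from 3 µg/kg, where 7.54% of all genes were called, as were 15.9% at the next dose. At 30 µg/kg *Ahrr*, *Tiparp* and *Ptges3* were called, 3 of the 6 tested members, against 29.6% of all genes. In the test over the 8 doses together, *Ahrr* and *Tiparp* were called, against 28.8% of all genes. Without replicate 5 of the 0.01 µg/kg group, *Ahrr* at 0.3 µg/kg and *Ptges3* in the test over all doses were called as well, and without replicate 2 *Ahrr* at 0.3 µg/kg. No other call of a member against vehicle changed without either mouse. The median log2 fold change of the 6 members at 30 µg/kg was 0.05, beside 0.02 over all genes tested.

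*Ahrr* (ENSMUSG00000021575) lies on chromosome 13 at 74211118 to 74292331 on the minus strand (GRCm38, GENCODE annotation). The promoter sequences of the 2 feedback genes are shown because these were the members that rose with dose. They are the 250 bases before the RefSeq start of each gene, 5′ to 3′ on the strand of the gene, from RefSeq on GRCm38.p6. They span chr13:74292332-74292581 on the minus strand for *Ahrr* and chr3:65528197-65528446 on the plus strand for *Tiparp*. The GENCODE annotation starts *Tiparp* at 65528410, so the last bases of its window lie inside the gene by that annotation. Capitals mark the response element core GCGTG or, on the other strand, CACGC.

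Ahrr: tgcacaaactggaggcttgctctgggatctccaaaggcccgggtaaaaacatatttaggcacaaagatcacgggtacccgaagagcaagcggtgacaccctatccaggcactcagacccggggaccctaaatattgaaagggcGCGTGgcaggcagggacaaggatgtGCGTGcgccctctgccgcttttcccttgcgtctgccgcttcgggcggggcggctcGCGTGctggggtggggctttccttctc
Tiparp: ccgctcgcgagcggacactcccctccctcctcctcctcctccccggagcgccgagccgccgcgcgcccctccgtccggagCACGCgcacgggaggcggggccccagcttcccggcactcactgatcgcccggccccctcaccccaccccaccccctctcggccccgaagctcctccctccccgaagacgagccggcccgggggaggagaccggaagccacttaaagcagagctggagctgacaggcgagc

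The *Ahrr* window held 3 copies of GCGTG, starting 107, 82 and 27 bases before the start, and no copy of CACGC. The *Tiparp* window held 1 CACGC, starting 170 bases before the start. On either strand, at least 1 copy was present in 28.2% of the 32851 promoters in the RefSeq table and at least 3 copies in 2.77%. Of the other members, *Arnt* had 1 copy, *Ptges3* 2 and *Arnt2* none. *Ahr* and *Hsp90ab1* had no entry in the table. A match is a match of letters, and binding was not measured in these samples.

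*Ahrr* was close to the detection limit without TCDD. The 5 vehicle mice had 2, 2, 1, 1 and 6 reads on it, or 0.142, 0.127, 0.0616, 0.0619 and 0.303 CPM. Over the 45 mice, 3 reads corresponded to 0.0569 to 0.267 CPM, and 4 mice at the 3 lowest doses had no *Ahrr* read. In the 0.01 µg/kg group the values were 0.26, 0, 0.268, 0 and 1.27 CPM. The 0.03 µg/kg mice had 0.214, 0.0879, 0, 0.0761 and 0.232 CPM, and those given 0.1 µg/kg had 0, 0.123, 0.234, 0.192 and 0.228 CPM. Apart from replicate 5 at 0.01 µg/kg, the mice at these 3 doses stayed within or below the vehicle range.

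That replicate had 61 *Ahrr* reads. It also had 69.69 CPM of *Cyp1a1* against 1.18 to 4.54 in the other mice of its group, and 17.47 CPM of *Cyp1b1* against 0.239 to 0.974. Its levels of *Ahrr*, *Cyp1a1* and *Cyp1b1* were 1.69%, 0.914% and 1.203% of the means at 30 µg/kg. For *Cyp1a2* it was within its group (1926 CPM against 988.5 to 1952), and so was *Nqo1* (14.6 CPM against 13.7 to 17.0). *Tiparp* was at 13.24 CPM, above the 9.911 to 12.57 of its group and within the vehicle range (11.02 to 16.53). The part of this library's raised macrophage and leukocyte markers in its *Ahrr* level was not tested. With it, *Ahrr* at 0.01 µg/kg differed by 1.75 on the log2 scale (standard error 0.72, adjusted p = 0.410 in edgeR), and without it 0.12 (adjusted p = 0.975). Without replicate 2 of that group the value was 1.964 (adjusted p = 0.280). For *Ahr* the log2 fold change at this dose was 0.07, but -0.09 without replicate 5 and 0.10 without replicate 2. The other tested members kept their sign, with *Arnt* at -0.19 (-0.22 and -0.14 without replicates 5 and 2 in turn), *Tiparp* at -0.25 (-0.32 and -0.21), *Ptges3* at -0.20 (-0.27 and -0.20) and *Hsp90ab1* at 0.20 in all 3 fits. None of these was called, with adjusted p-values of 0.521 or more.

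From 0.3 µg/kg every *Ahrr* value was above every vehicle value, at that dose by little (0.325 against 0.303 CPM). The 5 mice at 0.3 µg/kg were at 1.02, 0.907, 1.71, 0.467 and 0.325 CPM, from 6 to 45 reads. Groups without overlap in CPM were found for 1.83% of all tested genes at this dose. The log2 fold change was 2.64 (standard error 0.68), but its adjusted p of 0.0624 in edgeR missed the threshold. The call turned on single libraries. Without replicate 5 at 0.01 µg/kg the adjusted p was 0.0139 with a log2 fold change of 2.63, without replicate 2 at that dose it was 0.0422, and in the 45 fits with 1 mouse left out it ranged from 0.0139 to 0.245. The 5 fits that called *Ahrr* lacked replicates 2, 4 or 5 at 0.01 µg/kg, replicate 5 at 0.3 µg/kg or replicate 2 at 1 µg/kg. The Wald test of DESeq2 also called it, with an adjusted p of 0.00605.

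In the 1 µg/kg group *Ahrr* reached 10.4, 22.6, 11.1, 10.8 and 8.76 CPM, and in the 3 µg/kg group 36.7, 30.1, 30.6, 34.4 and 32.2 CPM. The 10 µg/kg mice had 79.5, 52.2, 44.2, 65.5 and 43.0 CPM, and the mice given the highest dose 93.2, 63.7, 73.5, 90.4 and 56.3 CPM. Each of these 4 groups lay wholly above the vehicle group, and 4.74%, 7.96%, 14.2% and 19.9% of all genes likewise had no overlap with it, in either direction, at these doses in turn. The log2 fold changes from 1 to 30 µg/kg were 6.41 (standard error 0.50, adjusted p = 1.751e-12), 7.75 (0.49, 1.741e-15), 8.55 (0.49, 3.092e-17) and 8.96 (0.49, 2.578e-18). The last is a 498-fold increase, with a 95% interval of 8.01 to 9.91 on the log2 scale that reflects the 12 vehicle reads behind it. Replicate 2 at 1 µg/kg stood above the other 4 mice of its group, and without it the log2 fold change at that dose was 6.07 (adjusted p = 7.641e-12).

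*Tiparp* (ENSMUSG00000034640, chromosome 3, 65528410 to 65555518, plus strand) was well expressed without TCDD and moved later. Vehicle mice were at 13.7, 16.5, 15.5, 11.7 and 11.0 CPM. From 0.01 to 0.3 µg/kg the 20 mice lay between 8.16 and 16.8 CPM, with log2 fold changes of -0.25, -0.16, -0.21 and -0.11 and adjusted p-values from 0.628 to 0.914. At 1 µg/kg the values were 16.3, 23.2, 14.9, 12.7 and 14.1 CPM. That group overlapped the vehicle group and had a log2 fold change of 0.26 (95% interval -0.08 to 0.59, adjusted p = 0.556). Replicate 2, the mouse with the high *Ahrr* value, was the highest here too, and without it the log2 fold change was 0.08 (adjusted p = 0.934).

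In the 3 µg/kg group *Tiparp* was at 34.2, 35.2, 63.1, 43.1 and 42.9 CPM, and in the 10 µg/kg group at 88.7, 108.3, 77.2, 71.04 and 117.9 CPM. The mice given 30 µg/kg had 173.9, 163.5, 189.0, 130.0 and 191.8 CPM. Each of these 3 groups lay wholly above the vehicle group, where 7.96%, 14.2% and 19.9% of all genes had no overlap with it in either direction. The log2 fold changes were 1.68 (standard error 0.17, adjusted p = 1.628e-09), 2.76 (0.18, 9.151e-16) and 3.63 (0.18, 3.007e-19), and the last is a 12.4-fold increase. Exons of *Tiparp* share 223 bases with *4931440P22Rik* on the opposite strand, and the strand setting of the counting is not given in the sources used here. *4931440P22Rik* had 3 to 8 reads in vehicle mice and 18 to 40 at 30 µg/kg, where *Tiparp* had 2334 to 5345.

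**Figure D2:**
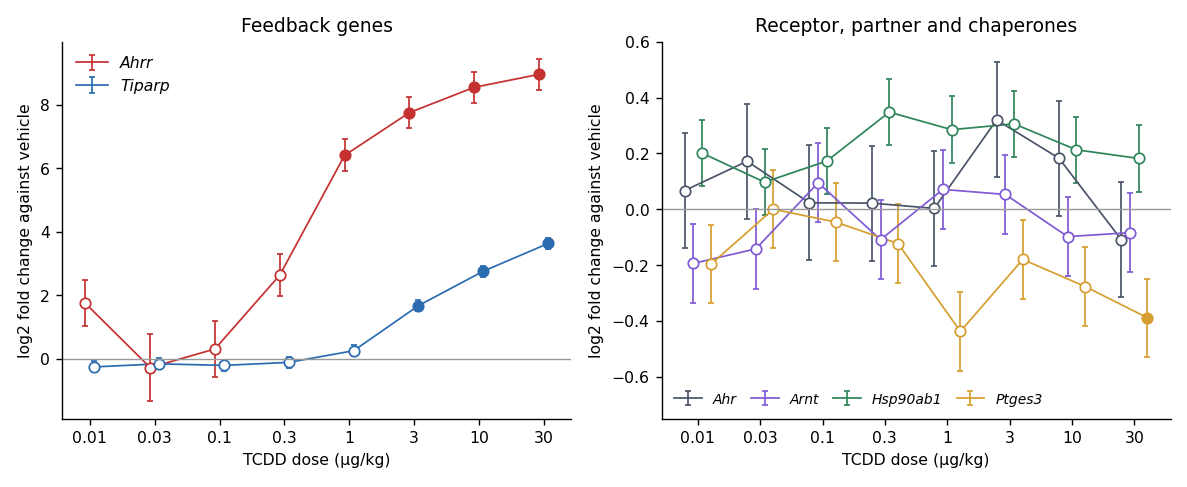
Log2 fold change against vehicle with the standard error derived from its edgeR test, against TCDD dose, for the feedback genes (left) and for the receptor, its partner and the chaperones (right). Filled points have an adjusted p under 0.05. *Ahrr* is filled from 1 µg/kg and *Tiparp* from 3 µg/kg, while on the right, with its narrower axis, *Ptges3* at 30 µg/kg is the single filled point.

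Neighbouring doses were compared next. From 0.3 to 1 µg/kg *Ahrr* rose 13.7-fold (log2 3.77, standard error 0.37, adjusted p = 1.345e-08), in a step that called 0.115% of all genes. *Tiparp* differed by 0.37 on the log2 scale in the same step (adjusted p = 0.859). From 1 to 3 µg/kg *Ahrr* rose by 1.34 (adjusted p = 0.0271) and *Tiparp* by 1.42 (adjusted p = 1.749e-06) on the log2 scale, with 0.178% of genes called. The *Ahrr* call in that step was lost when any 1 of 9 of the 10 mice at 1 and 3 µg/kg was left out (adjusted p up to 0.136). It held without the remaining mouse, replicate 2 at 1 µg/kg (adjusted p = 0.00338), and without replicate 5 at 0.01 µg/kg (adjusted p = 0.00266).

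Above 3 µg/kg *Tiparp* kept rising by the test, by 1.08 on the log2 scale from 3 to 10 µg/kg (adjusted p = 5.903e-05, 0.784% of genes called) and by 0.87 from 10 to 30 µg/kg (adjusted p = 0.002003, 0.613% called). *Ahrr* differed by 0.80 (95% interval 0.25 to 1.34, adjusted p = 0.245) and by 0.41 (-0.14 to 0.95, adjusted p = 0.831) in these steps, neither of which passed. Without replicate 5 at 0.01 µg/kg the adjusted p of the first was 0.0976, and its unadjusted p with all mice was 0.00665. From 0.1 to 0.3 µg/kg *Ahrr* differed by 2.33 (adjusted p = 0.225, 0.0458% of genes called), and by 2.32 without replicate 5 (adjusted p = 0.0431) or replicate 2 (adjusted p = 0.154) of the 0.01 µg/kg group. The other 4 tested members were not called in any of the 5 steps, and 1 of these 20 tests had an unadjusted p under 0.05 (*Ptges3* from 0.3 to 1 µg/kg, -0.32 on the log2 scale). In CPM, the *Ahrr* groups at 0.3, 1, 3 and 10 µg/kg each lay wholly above the group of the next lower dose, and the groups at 10 and 30 µg/kg overlapped. The *Tiparp* groups at 3, 10 and 30 µg/kg each lay wholly above the group of the next lower dose. In the 5 steps from 0.1 to 30 µg/kg, in turn, 0.584%, 1.13%, 1.72%, 2.85% and 1.88% of all genes had no overlap between the neighbouring groups, in either direction.

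Whether the 2 feedback genes differed was tested within mice, as the log2 ratio of *Tiparp* to *Ahrr* reads with 0.5 added to each. The ratio fell by 3.60 from 0.3 to 1 µg/kg, from a mean of 4.01 (2.83 to 5.04) to 0.41 (0.04 to 0.69). The groups did not overlap (exact two-sided permutation p = 0.007937, the smallest that 5 against 5 mice can give, adjusted over 4 steps 0.0317). In the 3 steps above 1 µg/kg the ratio differed by -0.02, 0.34 and 0.47 with overlapping groups (exact permutation p = 0.929, 0.333 and 0.198, adjusted p = 0.929, 0.444 and 0.397). This test was added after the values had been seen.

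The dose at which the log2 fold change reached 50% of that at 30 µg/kg was interpolated on a log dose scale. It was 0.54 µg/kg for *Ahrr* (0.494 to 0.578 with 1 mouse left out) and 3.50 µg/kg for *Tiparp* (3.24 to 4.04). On the linear scale of fold change it was 3.86 µg/kg for *Ahrr* (3.46 to 4.30) and 9.76 µg/kg for *Tiparp* (8.68 to 10.8). The order was the same on both scales and the leave-out ranges did not overlap. A leave-out range is not a confidence interval. On the log2 scale the jackknife standard errors from these fits were 0.077 µg/kg for *Ahrr* and 0.72 µg/kg for *Tiparp*. Among 6 AhR-regulated enzymes with reads in vehicle mice, the log2-scale dose was 0.0593 µg/kg for *Cyp1a1*, 0.113 for *Cyp1a2* and 0.757 for *Cyp1b1*, which are cytochromes P450, and 0.847 for *Gsta1*, 1.17 for *Nqo1* and 1.496 for *Ugt1a6a*, which conjugate or reduce xenobiotics. The order of the enzymes and feedback genes depended on the scale. On the linear scale *Nqo1* (10.6 µg/kg) was above *Tiparp*, *Ugt1a6a* (3.37) below *Ahrr*, and *Gsta1* (4.51) below *Cyp1b1* (6.90). For *Aldh3a1*, with no vehicle read, no such dose could be given. The lowest dose at which a gene was called was 0.03 µg/kg for *Cyp1a2*, 0.1 for *Cyp1a1*, 1 for *Cyp1b1*, *Nqo1* and *Ugt1a6a*, and 10 for *Aldh3a1* and *Gsta1*, which had few reads.

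**Figure D3:**
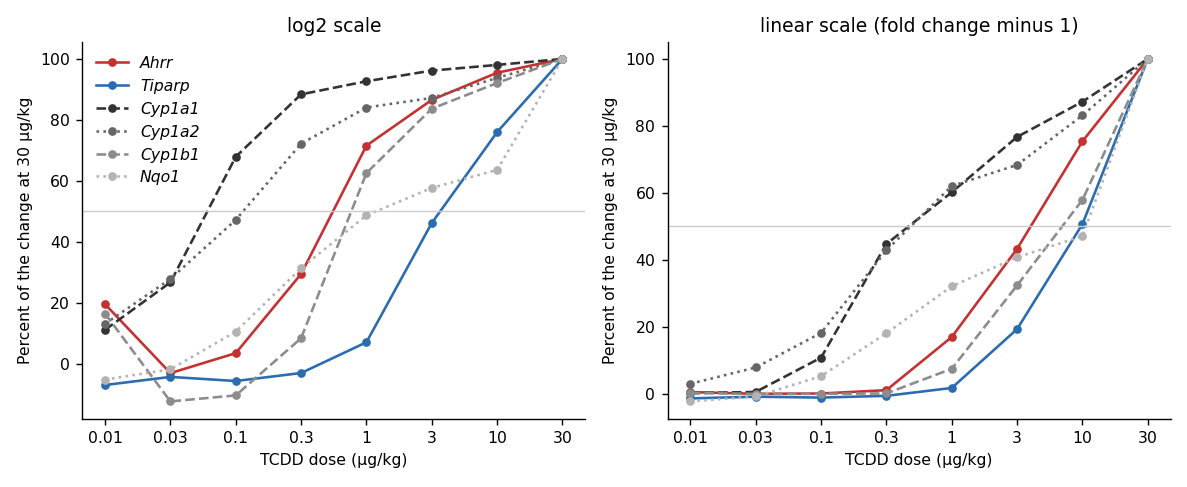
Change against vehicle as a percent of the change at 30 µg/kg, on the log2 scale (left) and the linear scale (right), against TCDD dose, for *Ahrr*, *Tiparp* and 4 AhR-regulated enzymes. The gray line marks 50%. *Ahrr* crosses it between 0.3 and 1 µg/kg on the log2 scale and between 3 and 10 µg/kg on the linear scale, each time at a lower dose than *Tiparp*.

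*Ahr* (ENSMUSG00000019256, chromosome 12, 35497974 to 35535038, minus strand) was not called at any dose. Vehicle mice were at 63.8, 60.1, 97.4, 76.5 and 70.4 CPM, and mice at 30 µg/kg at 67.8, 56.7, 78.5, 77.6 and 60.4 CPM. The lowest value of all 45 mice was 43.8 CPM at 0.01 µg/kg and the highest 118.1 CPM at 10 µg/kg, and each group overlapped the vehicle group. The log2 fold change was -0.11 at 30 µg/kg (95% interval -0.51 to 0.30, adjusted p = 0.737) and largest at 3 µg/kg, at 0.32 (-0.08 to 0.72, adjusted p = 0.397). Changes of *Ahr* mRNA within these intervals remain compatible with the values of 5 mice per group. Exons of *Ahr* share 127 bases with *Gm48236* on the opposite strand in the later annotation used here.

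*Arnt* (ENSMUSG00000015522, chromosome 3, 95434388 to 95497240, plus strand), the nuclear partner, was also not called at any dose. Vehicle mice were at 47.4, 65.3, 60.1, 60.8 and 59.7 CPM, and mice at 30 µg/kg at 45.7, 52.0, 56.9, 69.3 and 53.1 CPM. Its log2 fold changes lay between -0.19 and 0.10 over the 8 doses and came to -0.08 at the highest dose (95% interval -0.36 to 0.20, adjusted p = 0.707). *Arnt2* (ENSMUSG00000015709, chromosome 7, 84246278 to 84410176, minus strand), a paralog best known from brain and kidney, had 11 reads in all, in 10 of the 45 mice and at most 2 in any mouse. In the other 35 mice there was no read, so *Arnt2* was near the limit of 3 reads throughout and was not tested.

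*Hsp90ab1* (ENSMUSG00000023944, chromosome 17, 45567775 to 45573271, minus strand), the constitutive cytosolic HSP90, was the most abundant member. Vehicle mice were at 789.7, 720.8, 665.8, 774.2 and 619.3 CPM. The 8 log2 fold changes were all above 0, from 0.10 at 0.03 µg/kg to 0.35 at 0.3 µg/kg, and none was called (lowest adjusted p = 0.110, at 3 µg/kg). All 5 mice were above the vehicle range in the 1 µg/kg group (829.9 to 962.2 CPM) and in the 10 µg/kg group (793.5 to 907.8 CPM), with adjusted p-values of 0.274 and 0.237. At these doses 4.74% and 14.2% of all genes had no overlap with vehicle, in either direction. At 30 µg/kg the values were 807.3, 863.4, 847.4, 848.0 and 684.1 CPM, with a log2 fold change of 0.18 (95% interval -0.05 to 0.41, adjusted p = 0.261). Replicate 1 at 0.3 µg/kg was at 1414 CPM against 749.4 to 828.0 in its group. Without that mouse the value at 0.3 µg/kg was 0.13 (adjusted p = 0.676), and *Hsp90ab1* at 3 µg/kg was called (adjusted p = 0.0330).

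*Ptges3* (ENSMUSG00000071072, chromosome 10, 128058954 to 128077272, plus strand), which encodes p23, fell at 30 µg/kg. Vehicle mice were at 52.7, 40, 51.3, 35.7 and 57.5 CPM and mice at 30 µg/kg at 38.5, 30.5, 38.6, 40.8 and 32.7 CPM. The groups overlapped, and the log2 fold change was -0.39 (standard error 0.14, 95% interval -0.66 to -0.11, adjusted p = 0.0320). The call was lost without any 1 of vehicle replicates 1, 3 and 5 or of replicates 2 and 5 at 30 µg/kg (log2 fold change -0.31 to -0.37, adjusted p up to 0.116). At 1 µg/kg the value was larger but missed the threshold (-0.44, adjusted p = 0.112), at 33.2, 29.7, 38.4, 36.3 and 37.7 CPM, and the test over all doses did not call the gene (adjusted p = 0.0688), but called it without any 1 of 8 of the 45 mice, replicate 5 at 0.01 µg/kg among them. Of the 50-base windows of its transcripts, 19.6% occur also in transcripts of *Ptges3-ps* or *Gm11893*, and reads that fit more than 1 place were left out of the counts, so its level is uncertain. *Ptges3-ps* had 174 to 291 reads in vehicle mice and 172 to 335 at 30 µg/kg.

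The chaperone results also moved with the scaling. Without normalization the median log2 fold change of all genes at 30 µg/kg was 0.23. On that scale *Ptges3* was at -0.18 (adjusted p = 0.328) and lost its call, while *Hsp90ab1* was at 0.40 and was called (adjusted p = 0.0126), as it was at 3 µg/kg (0.40, adjusted p = 0.0390). Relative to the shift of all genes, *Ptges3* stayed below and *Hsp90ab1* above it.

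The ratio of each feedback gene to the receptor was compared within mice, per kilobase of exon, so that the scaling of the library drops out. *Ahrr* to *Ahr* had a median of 0.00138 in vehicle mice (0.000413 to 0.00281). From 0.3 to 30 µg/kg the medians were 0.0088 (0.00222 to 0.0148), 0.103 (0.0590 to 0.220), 0.241 (0.180 to 0.368), 0.469 (0.238 to 0.736) and 0.733 (0.609 to 0.897). In none of the 45 mice did *Ahrr* reach the level of *Ahr* per kilobase. That depended on the exon lengths used, 9441 bases for *Ahrr* and 6163 for *Ahr*. In reads, *Ahrr* was above *Ahr* in replicate 1 at 10 µg/kg (2450 against 2173). It was also above in replicates 1 (2068 against 1505), 2 (1112 against 990) and 4 (1622 against 1393) at 30 µg/kg. *Tiparp* to *Ahr* had a median of 0.225 in vehicle mice (0.216 to 0.389), and medians of 0.306 (0.206 to 0.489), 0.654 (0.519 to 0.847), 1.55 (1.41 to 1.78) and 3.63 (2.37 to 4.49) from 1 to 30 µg/kg. Per kilobase, *Tiparp* was thus below *Ahr* in every mouse up to 3 µg/kg and above it in every mouse at 10 and 30 µg/kg. In reads, replicate 5 at 10 µg/kg had 3360 on *Tiparp* and 3365 on *Ahr*. *Arnt* to *Ahr* had medians from 0.493 to 0.693 over the 9 groups, and in 1 mouse of 45, at 0.1 µg/kg, the ratio was above 1 (1.24).

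These ratios were tested against vehicle on the log2 scale of reads plus 0.5, by exact two-sided permutation of 5 against 5 mice and adjusted over 24 tests. For *Ahrr* the differences were 2.36 at 0.3 µg/kg (exact permutation p = 0.0159, adjusted p = 0.0476), then 6.30, 7.45, 8.36 and 9.04 at 1 to 30 µg/kg. For *Tiparp* they were 1.34, 2.59 and 3.73 at 3, 10 and 30 µg/kg. The groups did not overlap in these 7 comparisons from 1 µg/kg for *Ahrr* and 3 µg/kg for *Tiparp* (exact permutation p = 0.007937 and adjusted p = 0.0272 each). No *Arnt* ratio passed, with differences from -0.32 to 0.06 and adjusted p-values from 0.339.

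**Figure D4:**
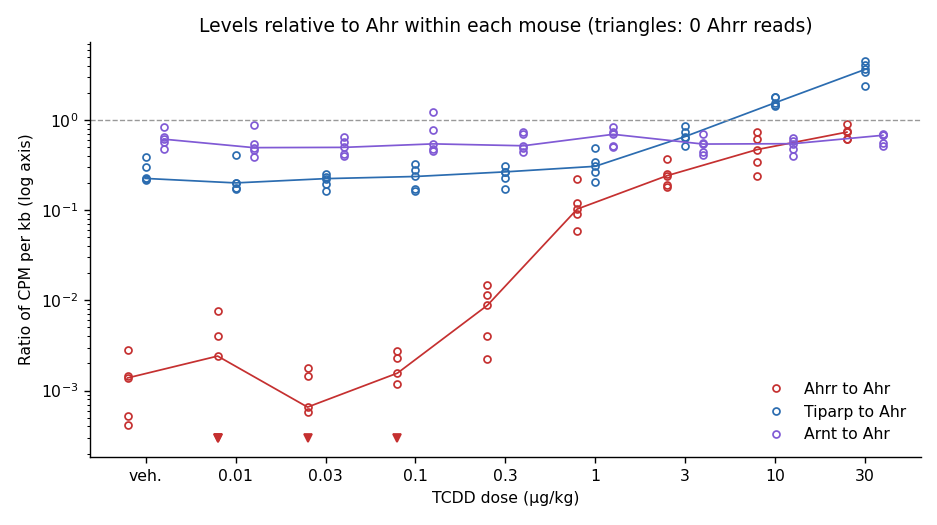
Ratio of CPM per kilobase of *Ahrr*, *Tiparp* and *Arnt* to *Ahr* within each mouse against TCDD dose, on a log axis, with lines through the group medians and a dashed line at a ratio of 1. Triangles mark mice with 0 *Ahrr* reads, whose height is arbitrary. *Tiparp* crosses 1 between 3 and 10 µg/kg, *Ahrr* nears but stays under it, and *Arnt* keeps a median between 0.493 and 0.693.

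Other genes of the pathway were described in 5 lists, at 30 µg/kg, where 15.5% of all tested genes were called higher and 14.1% lower. Of the 7 AhR-regulated enzymes, all 7 were called higher, with a median log2 fold change of 3.97. *Cyp1a1* (9.98, adjusted p = 1.067e-12) and *Cyp1b1* (9.97, adjusted p = 1.022e-14) had the largest values, and *Cyp1a2*, the major constitutive member in liver, was at 3.97 (adjusted p = 9.902e-24). *Aldh3a1*, an aldehyde dehydrogenase, had no read in the vehicle group and was at least 16.4-fold higher against a floor of 3 reads over the group, and with it at this bound the list median was still 3.97. These genes are known AhR targets and were listed as such.

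Of the 21 genes listed for the cytosolic complex and the HSP90 co-chaperones, 2 were called higher and 4 lower, with a median log2 fold change of -0.02. The list also held *Hsp90b1* and *Trap1*, HSP90 genes of other compartments, and both are among these calls. *Trap1*, named for this reason, was at 0.22 (adjusted p = 0.0121). *Unc45a*, an HSP90 co-chaperone for myosin, rose by 0.66 (adjusted p = 0.000286). *Hsp90b1*, the HSP90 of the endoplasmic reticulum, was at -0.63 (adjusted p = 0.000286), the immunophilin *Fkbp4* at -0.54 (adjusted p = 0.0168) and the HSP70 exchange factor *Bag1* at -0.49 (adjusted p = 0.00122). The inducible HSP90 gene *Hsp90aa1*, looked at after the values had been seen, was at 0.07 (adjusted p = 0.888).

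Of 18 other genes of the basic helix-loop-helix PAS family, 14 were tested, 0 were called higher (also 0 at an unadjusted p under 0.05) and 2 lower in edgeR, with a median of -0.21. Both encode hypoxia-inducible factors, which also pair with ARNT, with *Epas1* at -0.53 (129.7 to 185.9 CPM in vehicle mice, 101.9 to 142.4 at 30 µg/kg, adjusted p = 0.000513) and *Hif1a* at -0.41 (62.3 to 81.1 and 40.3 to 57.97 CPM, adjusted p = 0.00212). Of 15 PARP family genes other than *Tiparp*, 2 were called higher and 5 lower, with a median of 0.07. *Parp8* rose by 1.197 (adjusted p = 0.00354) and *Parp9* by 0.46 (adjusted p = 0.000557), while *Parp16* was at -0.64 (adjusted p = 0.00749) and *Parp3* at -0.53 (adjusted p = 0.0141). Each was smaller than the 3.63 of *Tiparp*. Of 21 AhR coregulators and turnover genes, 3 were called higher and 2 lower, with a median of 0.01. *Nfe2l2*, the antioxidant regulator NRF2, rose by 1.24 (adjusted p = 3.513e-14), *Relb*, an NF-κB subunit that binds AhR, by 0.86 (adjusted p = 0.0253) and the corepressor *Nrip1* by 0.52 (adjusted p = 0.0239). *Cul4b*, a ubiquitin ligase scaffold, was at -0.45 (adjusted p = 0.00122).

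**Figure D5:**
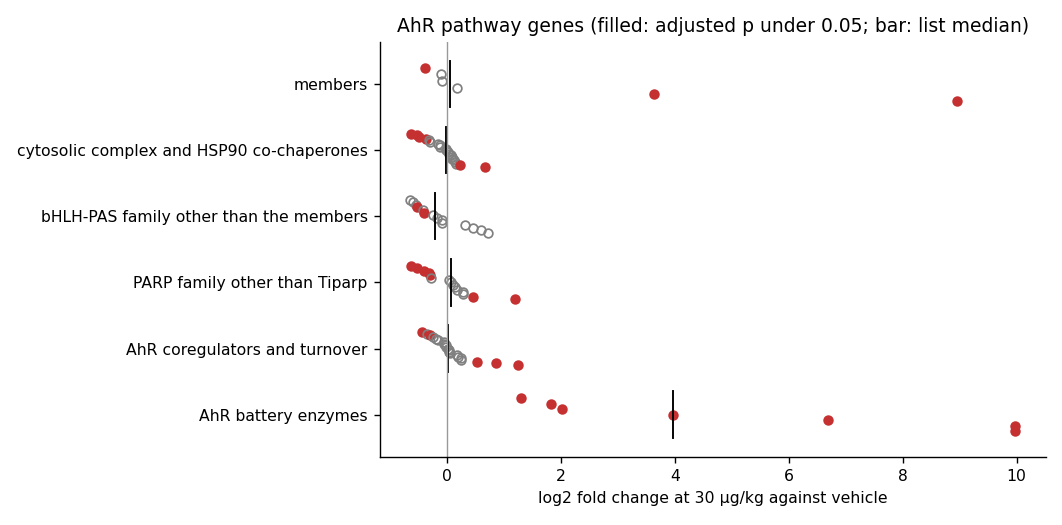
Log2 fold change at 30 µg/kg against vehicle of each tested gene in the 7-gene set (members) and in 5 lists of the AhR pathway, with filled points for an adjusted p under 0.05 and a bar at the list median. The enzymes lie wholly to the right, from 1.29 to 9.98, while the medians of the other lists are between -0.21 and 0.07.

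For each member called at 30 µg/kg, the 3 genes with the most similar profile over the 45 mice were listed. They were ranked by Pearson's r of log2 CPM, which does not compare levels, among 13609 genes with at least 10 reads on average. The mice share doses and libraries, so r is given as a description. For *Ahrr* they were *Cyp1b1* (0.98), *Fbxw9* (0.959) and *Fabp12* (0.957). For *Tiparp* they were *Ovol1* (0.974), *Col9a2* (0.963) and *Msrb3* (0.958), of which *Col9a2* went from 0.0366 to 114.9 CPM and *Msrb3* from 8.79 to 65.8 CPM between vehicle and 30 µg/kg. For *Ptges3* they were *Srsf2* (0.857), *Sgpp1* (0.816) and *Cnbp* (0.816), which at 30 µg/kg were at -0.28, -0.38 and -0.35 on the log2 scale.

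Markers of several cell types, though not of bile ducts, differed from vehicle at 30 µg/kg as well. In bulk tissue fewer cells of a type and less RNA per cell cannot be told apart. At 30 µg/kg 5 of 12 macrophage and Kupffer cell markers, 6 of 13 leukocyte, 6 of 10 stellate cell, 6 of 9 endothelial and 0 of 7 bile duct markers were called higher, and 7 of 9 hepatocyte markers lower. Of all tested genes, 15.5% were called higher and 14.1% lower at this dose. At 10 µg/kg 0 of the 12 macrophage and Kupffer cell markers were called. No bile duct marker was higher at an unadjusted p under 0.05 in edgeR either. The summed macrophage markers were at 227.2 to 372 CPM in vehicle mice and 212.2 to 629.8 at 30 µg/kg, and the leukocyte markers at 9.60 to 18.2 and 19.4 to 43.6 CPM. The stellate cell markers were at 272.2 to 383.4 and 510.4 to 722.5 CPM, the endothelial at 161.5 to 219.1 and 196.2 to 312.3, the bile duct at 62.9 to 85.9 and 65.2 to 82.6, and the hepatocyte at 123900 to 163200 and 112700 to 162900. *Alb* made up most of the hepatocyte sum, with a mean of 111500 CPM in vehicle mice, and its log2 fold change at 30 µg/kg was -0.08 (adjusted p = 0.650 in edgeR). The hepatocyte sum therefore hardly shows the markers that were called lower. No marker was without reads in either group. Their part in the rise of *Ahrr* and *Tiparp* was not tested.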

How the data were processed

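Liver RNA of 45 mice was sequenced, 5 in each of 9 dose groups taken from the sample labels. Per the labels and the study's methods, the authors aligned reads to GRCm38 with TopHat 1.4.1 and deposited raw read counts per Ensembl gene from HTSeq 0.6.1, without normalization. Reads with more than 1 alignment were left out, and 5 rows that name no gene were dropped. Per mouse, 9.11 to 17.1% of uniquely aligned reads lay off genes.

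Symbols were matched for 37607 of 39179 identifiers. Genes with more than 4 reads in any sample were tested with edgeR 4.0.16 (R 4.3.3, TMM, quasi-likelihood, 1 coefficient per group, Benjamini-Hochberg within each comparison) in place of the study's empirical Bayes procedure. The standard error was approximated as the absolute log2 fold change divided by the square root of the F statistic of its test. Intervals of 95% are from normal quantiles of this standard error. On simulated counts with 200 changed genes, 88% of 2-fold and 100% of 4-fold changes at 30 µg/kg were recovered. There were 9 false calls among 17464 genes. Every simulated gene had the same spread between mice beyond counting error, unlike real genes, and the changed genes were drawn only from those with more expected reads. How recovery varied with read level or with the spread between mice was not tested. The rates are therefore not given for genes with as few reads as *Ahrr* in vehicle mice. Alternatives were DESeq2's size factors and Wald test (DESeq2 1.42.0), no normalization, 2 other read filters, fits of vehicle and 1 dose, and each mouse left out. Exact tests used scipy 1.17.1 in Python 3.11.15, and promoters were read from RefSeq tables.

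The members and lists were chosen with earlier results of these data known. Within a list, the text names up to 4 called genes with the largest change at 30 µg/kg, and exceptions are marked. List symbols matched except 1, of the hepatocyte list. Arrays and PCR were not analysed here. Precision is limited by reads for *Ahrr* and *Arnt2*. Standard errors cover counting error and the spread between mice.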

Additional observations from a re-analysis of the deposited data

Results flagged for a closer look

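In each of 54 groups of 5 mice (6 members, 9 groups), the gap of the most extreme mouse to its nearest neighbour was divided by the range of the group and compared with Dixon's critical value of 0.71, which chance passes in about 1 in 20 groups. In 6 groups the ratio was above it. *Ahrr* was flagged for replicate 5 at 0.01 µg/kg (ratio 0.79, 1.27 CPM against 0 to 0.268) and for replicate 2 at 1 µg/kg (0.832, 22.6 against 8.76 to 11.1 CPM). The latter mouse was also lowest for *Arnt* (0.823, 45.1 against 63.8 to 67.8 CPM) and highest for *Hsp90ab1* (0.732, 962.2 against 829.9 to 865.3 CPM). *Hsp90ab1* was flagged too for replicate 1 at 0.3 µg/kg (0.882, 1414 against 749.4 to 828.0 CPM) and replicate 1 at 10 µg/kg (0.753, 907.8 against 793.5 to 821.7 CPM). What set these mice apart was not tested.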

How the results depend on the processing

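Of 749 recomputed counts of calls, 708 equalled the reported count, 20 differed by up to 1.5 times and 21 by more. Many of these could hardly change. The reported counts at 0.01, 0.03 and 0.1 µg/kg were 0, and most left-out mice were not in the groups compared. The share of equal counts is therefore no measure of stability. Of 402 recomputed fold changes and doses, 393 kept their side of the threshold, or for doses stayed within the jackknife error. No called value changed sign, while those of *Ahr* and *Arnt* at 30 µg/kg, which were not called, were above 0 (0.10 and 0.125) without normalization. An equal count need not be of the same genes, as at 30 µg/kg without normalization, where *Hsp90ab1* replaced *Ptges3* among the 3. The count of members called at 0.3 µg/kg was 0, and 1 with DESeq2's Wald test. With 1 mouse left out it was 0 to 1, and the counts were 1 to 2 at 1 µg/kg (*Ptges3* without vehicle replicate 4), 2 to 3 at 3 µg/kg (*Hsp90ab1*, also called without normalization), 2 to 3 at 30 µg/kg and over all doses (*Ptges3*), 0 to 1 from 0.1 to 0.3 µg/kg and 1 to 2 from 1 to 3 µg/kg. Of the 24 ratio tests 8 passed, and 0 to 9 with 1 mouse left out. The smallest exact p is then 0.0159 instead of 0.007937, so these counts say nothing of stability. On linear CPM the 50%-response doses moved from 0.54 to 3.86 µg/kg (*Ahrr*) and from 3.50 to 9.76 µg/kg (*Tiparp*), by construction. No paired analysis was possible because the replicate numbers follow sample order and pair no mice. Low reads limit *Ahrr* below 1 µg/kg and *Arnt2* throughout.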
